A study of Mus musculus with 9 samples.

Results

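The collagen chain genes of the embryonic mouse pancreas were followed across wild-type, heterozygous and knockout libraries of the long noncoding RNA gene Blinc1, which lies beside the islet factor gene Nkx2-2. A gene was taken as a collagen chain when its symbol was Col, a type number, the letter a and a chain number, with nothing after it. This gave 43 of the 23235 gene symbols listed in every library. The pattern left out Col4a3bp, a near-namesake that encodes a ceramide transfer protein. Whole pancreas had been taken at e15.5 from embryos on a mixed background of C57BL/6 and 129Sv, and total RNA was sequenced. The groups were Blinc1+/+ (called wild type), Blinc1+/- (heterozygote) and Blinc1-/- (knockout), with 3 libraries each. The sources used here say neither how the Blinc1 allele was made nor whether each library is its own embryo or litter. A p-value therefore measures the spread between these samples alone.

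Collagens are the main structural proteins of the space between cells. Fibrillar collagens (types I, II, III, V, XI, XXIV and XXVII) assemble into the rope-like fibrils of connective tissue, whereas type IV collagen forms the meshwork of basement membranes, the thin sheets under epithelia and around vessels, to which types XV and XVIII are attached. The other chains build beaded filaments (type VI), short networks (types VIII and X) or anchoring fibrils (type VII), bind to the surface of fibrils (the FACIT group, types IX, XII, XIV, XVI, XIX, XX and XXII), or span the cell membrane (types XIII, XVII, XXIII and XXV). In the developing pancreas, mesenchyme surrounds the branching epithelium and is a main source of fibrillar collagen. By these classes the 43 genes were 11 fibrillar, 8 basement membrane and 24 other chains.

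Sequence upstream of the start was available from RefSeq (GRCm38.p6) for 35 of the 43 genes, as windows of 250 bases. Only the first window listed for a gene symbol was used, so any other promoter of a gene is left out. 4 are shown, because they belong to chains that the levels below turn on. They include Col3a1 (the chain of highest level) and Col5a1 (a fibrillar chain with the same highest and lowest library). The others are Col18a1 (a basement membrane chain) and Col19a1 (a chain whose order of libraries was different). Each was located in mm9 by an exact match and is written 5′ to 3′ on the gene's own strand, without bases that the annotation places in an exon. Capitals mark, on either strand, the letters CCAAT of the CCAAT box, the letters GGGCGG of the GC box and the letters TATAAA of the TATA box.
Col3a1, chr1:45368133-45368382, plus strand: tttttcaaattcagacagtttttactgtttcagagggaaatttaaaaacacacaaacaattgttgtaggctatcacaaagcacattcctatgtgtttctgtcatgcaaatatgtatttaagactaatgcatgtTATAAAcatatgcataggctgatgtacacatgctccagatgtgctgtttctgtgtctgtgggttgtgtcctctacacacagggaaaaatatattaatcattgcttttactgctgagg
Col5a1, chr2:27741695-27741944, plus strand: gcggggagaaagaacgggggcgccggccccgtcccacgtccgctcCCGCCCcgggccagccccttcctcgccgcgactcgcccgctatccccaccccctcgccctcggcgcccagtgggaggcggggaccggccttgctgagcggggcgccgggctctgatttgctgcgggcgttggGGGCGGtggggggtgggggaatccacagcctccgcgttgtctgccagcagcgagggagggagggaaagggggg
Col18a1, chr10:76629294-76629525, minus strand: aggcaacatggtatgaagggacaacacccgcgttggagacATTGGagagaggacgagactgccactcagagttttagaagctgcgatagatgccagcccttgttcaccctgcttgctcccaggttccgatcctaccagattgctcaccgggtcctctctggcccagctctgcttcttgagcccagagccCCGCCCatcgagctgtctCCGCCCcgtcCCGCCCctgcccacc
Col19a1, chr1:24594312-24594526, minus strand: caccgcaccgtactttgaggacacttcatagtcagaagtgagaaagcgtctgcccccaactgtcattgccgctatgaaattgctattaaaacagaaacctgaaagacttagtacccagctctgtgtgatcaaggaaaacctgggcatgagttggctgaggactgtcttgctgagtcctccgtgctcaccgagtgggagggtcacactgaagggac

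The Col3a1 window held 1 TATAAA and was 35.2% G and C, while the Col5a1 window held 2 GGGCGG and was 76.4% G and C. The Col18a1 stretch of 232 bases held 1 CCAAT and 3 GGGCGG, and the Col19a1 stretch of 215 bases held none of these motifs. These boxes are well-known elements of promoters, and a match describes letters, not a site in use. Over the full windows, GGGCGG was present for 21 of 35 collagen genes (60.0%), against 32.9% of 27025 promoters, 1 per gene symbol, in the same table. Those promoters were not limited to protein-coding or expressed genes, whereas the collagens are all protein-coding, so the sets are unlike. CCAAT was present for 12 of 35 (34.3%, against 34.5%) and TATAAA for 5 of 35 (14.3%, against 13.0%). CCAAT and GGGCGG can overlap by up to 2 bases.

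Levels are FPKM (fragments per length of transcript and per mapped total), as the authors deposited them. The confidence bounds beside each FPKM imply 18727537 to 23600046 fragments per library over the genes kept. Blinc1 was not analysed here under that name, so the genotype labels could not be checked by the targeted gene. Nkx2-2, its neighbour, was at 13.4 to 25.5 FPKM in 6 libraries, among them the one labelled knockout replicate 1, and at 6.37, 6.08 and 5.48 FPKM in those labelled heterozygote replicate 1, knockout replicate 2 and knockout replicate 3. Results are therefore also given without 2 libraries, those labelled knockout replicate 1 and heterozygote replicate 1. Xist, made only from an inactive X chromosome, reached 35.0 FPKM or more in all knockouts but in only 1 wild type and 1 heterozygote (replicate 3 of each), and at most 0.0608 FPKM elsewhere, so sex and genotype overlap in part. Mesenchyme markers were present in every library (Vim at 340.3 to 515 FPKM, Tcf21 at 10.4 to 25.8), as were those of acinar cells (summed level 15150 to 23490 FPKM). Of 7 markers of cartilage, bone and muscle, Ibsp was listed at 0 throughout, Matn1 did not pass 0.0758 FPKM, and only Acan, the core protein of the cartilage proteoglycan aggrecan, stayed above 1 FPKM, at 2.12 to 3.01.

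The chains differed widely in level. Over all 9 libraries, 5 chains averaged at least 100 FPKM (3 fibrillar and 2 other), 12 lay from 10 to under 100 (2 fibrillar, 4 basement membrane and 6 other), 14 from 1 to under 10 (5, 2 and 7) and 12 under 1 (1, 2 and 9). The 3 chains that form types I and III collagen carried most of the message: Col1a1, Col1a2 and Col3a1 together made up 57.4% to 59.8% of the summed collagen FPKM in each library. The fibrillar class as a whole held 63.6% to 66.1%, the basement membrane class 12.2% to 14.7% and the other chains 20.7% to 22.7%. These shares lay in these narrow ranges although the summed level itself differed from 1318 to 2274 FPKM.

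**Figure D1:**
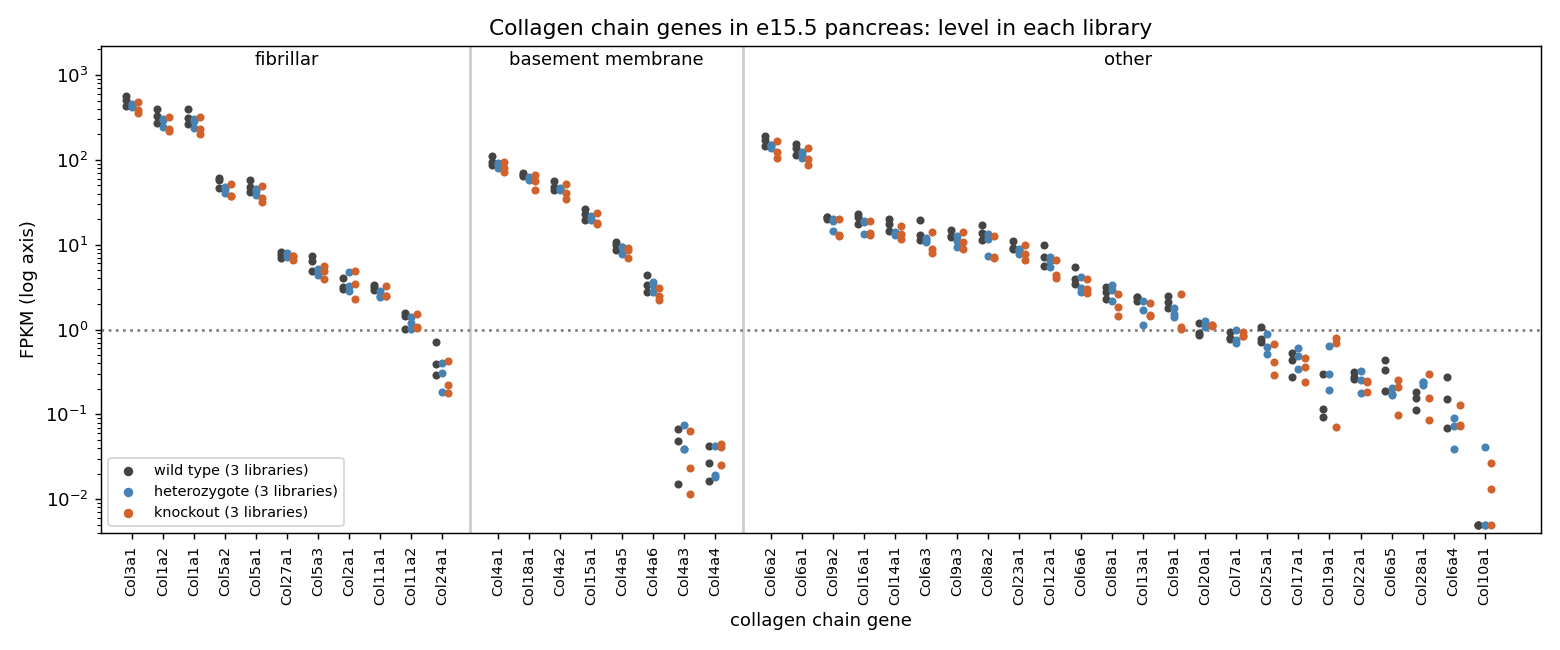
FPKM of the 43 collagen chain genes in each of the 9 libraries, on a log axis, by class and in order of mean level. Each point is 1 library of the named genotype, the dotted line marks 1 FPKM, values of 0 (Col10a1) are drawn at the bottom of the axis and the 5 chains above 100 FPKM on average are Col3a1, Col1a2, Col1a1, Col6a2 and Col6a1.

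Among fibrillar chains, Col3a1 (chromosome 1, 45368383 to 45406551 in mm9), the single chain of type III collagen, was at 508, 573 and 437 FPKM in the wild types, 415, 426 and 458 in the heterozygotes and 482, 361 and 391 in the knockouts. Both chains of type I collagen, the most abundant collagen of connective tissue, followed. Col1a2 (chromosome 6, 4455697 to 4491543) was at 326, 392 and 269 FPKM in the wild types, 298, 243 and 303 in the heterozygotes and 321, 219.7 and 231 in the knockouts. Col1a1 (chromosome 11, 94797584 to 94813170) was at 307, 396 and 265 FPKM in the wild types, 300.2, 240.1 and 291 in the heterozygotes and 319, 204 and 233 in the knockouts. In all 3 genes the highest library was wild-type replicate 2, the lowest was knockout replicate 2, and the genotypes overlapped. The library labelled knockout replicate 1 and at least 1 heterozygote of each gene lay inside the wild-type range, and the other knockouts lay below it.

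Type V collagen starts fibrils and sets their width. Col5a2 (chromosome 1, 45431176 to 45560127) was at 57.5, 61.4 and 46.6 FPKM in the wild types, 45.4, 40.8 and 47.7 in the heterozygotes and 51.6, 37.1 and 37.3 in the knockouts. Its partner chain Col5a1 (chromosome 2, 27741945 to 27895030) was at 47.8, 58.4 and 41.3 FPKM in the wild types, 45.5, 38.0 and 42.8 in the heterozygotes and 48.9, 31.9 and 35.3 in the knockouts. The third chain of the type, Col5a3 (chromosome 9, 20574494 to 20619478), was much lower, at 6.43, 7.42 and 4.94 FPKM in the wild types, 5.18, 4.33 and 4.72 in the heterozygotes and 5.66, 3.93 and 4.87 in the knockouts. Wild-type replicate 2 was the highest and knockout replicate 2 the lowest library for each, and wild-type replicate 3 was the lowest wild type. The heterozygotes of Col5a3 reached 5.18 FPKM, above the lowest wild type at 4.94, so those groups overlapped too.

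The remaining fibrillar chains were low, and they did not share one order of libraries. Col27a1, a chain of cartilage and other developing matrices, was the most even of the tested collagens, at 8.21, 7.61 and 7.00 FPKM in the wild types, 7.92, 7.81 and 7.21 in the heterozygotes and 7.41, 6.56 and 7.27 in the knockouts, with a coefficient of variation of 6.81% over the 9 libraries. Col2a1, the chain of cartilage fibrils, was at 2.97, 3.14 and 4.01 FPKM in the wild types, 2.85, 3.28 and 4.71 in the heterozygotes and 4.91, 2.31 and 3.46 in the knockouts. It was highest in the library labelled knockout replicate 1 and in heterozygote replicate 3, and lowest in knockout replicate 2. Col11a1 and Col11a2, chains of the minor fibrillar collagen of cartilage, lay at 2.42 to 3.31 and 1.004 to 1.58 FPKM. Col24a1 stayed between 0.177 and 0.721 FPKM and was not tested, since a test required 1 FPKM in at least 3 libraries.

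Of the basement membrane chains, Col4a1 and Col4a2, which make up the type IV network found in nearly every basement membrane, led. Col4a1 (chromosome 8, 11198423 to 11312826) was at 94.5, 110.1 and 86.3 FPKM in the wild types, 87.4, 92.8 and 80.9 in the heterozygotes and 94.0, 71.0 and 80.3 in the knockouts. Col4a2 (chromosome 8, 11312829 to 11449287) was at 47.9, 55.8 and 44.4 FPKM in the wild types, 45.2, 46.6 and 43.7 in the heterozygotes and 52.1, 34.7 and 40.8 in the knockouts. Wild-type replicate 2 was again highest and knockout replicate 2 lowest, and the heterozygotes lay within or just under the wild-type range.

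The collagens that bridge basement membranes to the matrix beside them came next. Col18a1 (chromosome 10, 76514924 to 76629275), which carries heparan sulfate and whose cleaved end is endostatin, was at 66.5, 69.1 and 64.5 FPKM in the wild types, 57.6, 63.6 and 60.6 in the heterozygotes and 66.8, 43.6 and 56.7 in the knockouts. The wild types lay close together (SD 2.34 FPKM), all 3 heterozygotes lay below them, and among knockouts 1 library was inside their range and 2 were below it. Col15a1 (chromosome 4, 47220884 to 47326037), a related chain, was at 23.1, 26.1 and 19.7 FPKM in the wild types, 19.4, 20.1 and 21.6 in the heterozygotes and 23.8, 17.4 and 17.9 in the knockouts. Its genotypes overlapped.

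Col4a5 and Col4a6, neighbours on the X chromosome that supply type IV networks of some epithelia and smooth muscle, were lower. Col4a5 (chromosome X, 137909962 to 138123778) was at 9.79, 10.6 and 8.73 FPKM in the wild types, 9.50, 7.68 and 9.43 in the heterozygotes and 9.11, 6.97 and 8.58 in the knockouts. Col4a6 (chromosome X, 137599946 to 137908619) was at 3.32, 4.35 and 2.78 FPKM in the wild types, 3.38, 2.75 and 3.67 in the heterozygotes and 3.10, 2.22 and 2.46 in the knockouts. In both, knockout replicate 2 was the lowest library and wild-type replicate 2 the highest. Col4a3 and Col4a4, chains of the mature kidney filter, were at 0.0750 and 0.0445 FPKM at most, on 14 and 8 implied fragments, and were not tested.

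Among the other chains, type VI collagen, the beaded filament that links cells to the matrix around them, was the most abundant. Col6a2 (chromosome 10, 76058501 to 76086149) was at 171, 192 and 147 FPKM in the wild types, 148, 139 and 149.5 in the heterozygotes and 168, 104 and 123 in the knockouts. Col6a1 (chromosome 10, 76171537 to 76188789) was at 139, 153 and 115 FPKM in the wild types, 116, 104 and 124 in the heterozygotes and 139, 86.7 and 103 in the knockouts. Col6a3 (chromosome 1, 92663435 to 92740548), the long chain of the filament, was at 13.0, 19.3 and 11.4 FPKM in the wild types, 12.1, 10.7 and 11.5 in the heterozygotes and 13.9, 7.91 and 8.92 in the knockouts. The 3 chains shared the order seen in the fibrillar genes, with wild-type replicate 2 highest and knockout replicates 2 and 3 lowest. Col6a6, an alternative to Col6a3, was at 2.69 to 5.43 FPKM, while Col6a4 and Col6a5 reached at most 0.279 and 0.439 FPKM.

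The FACIT chains decorate fibrils. Col9a2 (chromosome 4, 120712171 to 120727930) was at 21.1, 20.0 and 21.0 FPKM in the wild types, 18.9, 14.6 and 20.0 in the heterozygotes and 20.3, 12.8 and 12.9 in the knockouts. Col16a1 (chromosome 4, 129725084 to 129776521) was at 21.5, 23.1 and 17.7 FPKM in the wild types, 18.7, 13.5 and 19.1 in the heterozygotes and 18.8, 12.9 and 13.7 in the knockouts. Col14a1 (chromosome 15, 55139305 to 55352358) was at 17.4, 20.1 and 14.6 FPKM in the wild types, 12.9, 13.8 and 14.1 in the heterozygotes and 16.6, 11.7 and 13.3 in the knockouts. For Col9a2 the wild types lay close together (SD 0.579 FPKM), all heterozygotes lay below them (replicate 3 only just), and the knockouts split into 1 library at the wild-type level and 2 near 12.8 FPKM. Col16a1 was highest in wild-type replicate 2 and lowest in knockout replicate 2, with overlapping groups. For Col14a1 all heterozygotes lay below all wild types, and the knockouts overlapped both groups.

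The partners of Col9a2 in type IX collagen, a FACIT best known from cartilage, did not follow a single order. Col9a3 (chromosome 2, 180332927 to 180356890) was at 12.6, 12.4 and 14.7 FPKM in the wild types, 9.46, 12.8 and 11.1 in the heterozygotes and 14.1, 8.79 and 10.8 in the knockouts, highest in wild-type replicate 3 and lowest in knockout replicate 2. Col9a1 (chromosome 1, 24184449 to 24259577) was at 1.79, 2.12 and 2.51 FPKM in the wild types, 1.51, 1.42 and 1.77 in the heterozygotes and 2.60, 1.06 and 1.02 in the knockouts, highest in the library labelled knockout replicate 1. Col12a1 (chromosome 9, 79446798 to 79566485), a FACIT of loaded connective tissue, was at 7.20, 9.93 and 5.58 FPKM in the wild types, 6.43, 5.45 and 7.14 in the heterozygotes and 6.54, 4.03 and 4.43 in the knockouts. Wild-type replicate 2 stood above the other libraries of Col12a1, and knockout replicates 2 and 3 stood below the rest. Col20a1, at 0.861 to 1.27 FPKM, had knockouts close to 1.11 FPKM (SD 0.0151) inside the wild-type range.

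Type VIII collagen, a short-chain network known from beneath vascular and corneal endothelium, was expressed from both of its genes. Col8a2 (chromosome 4, 125964038 to 125991574) was at 13.8, 16.9 and 11.4 FPKM in the wild types, 11.7, 7.43 and 13.4 in the heterozygotes and 12.7, 7.07 and 6.91 in the knockouts, with heterozygote replicate 2 and knockout replicates 2 and 3 well below the others. Col8a1 (chromosome 16, 57624369 to 57754850) was at 3.19, 2.77 and 2.32 FPKM in the wild types, 2.93, 2.15 and 3.33 in the heterozygotes and 2.63, 1.46 and 1.82 in the knockouts, and its heterozygotes covered the wild-type range. Of the transmembrane chains, Col23a1 lay at 6.52 to 11.0 FPKM. Col13a1 (chromosome 10, 61301246 to 61441856), found at cell contacts and neuromuscular junctions, was at 2.41, 2.38 and 2.14 FPKM in the wild types, 1.13, 1.69 and 2.18 in the heterozygotes and 2.04, 1.43 and 1.50 in the knockouts. It was the 1 tested collagen whose knockouts all lay below all wild types.

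Besides Col24a1, Col4a3, Col4a4, Col6a4 and Col6a5, 7 chains were too low for the test. Col7a1, the anchoring fibril of skin, was steady at 0.695 to 0.978 FPKM. Col25a1 lay at 0.293 to 1.06, Col17a1 at 0.243 to 0.602, Col22a1 at 0.178 to 0.324 and Col28a1 at 0.0858 to 0.298 FPKM. Col10a1, the chain of hypertrophic cartilage, rested on 3 implied fragments at most and was listed at 0 in 6 libraries.

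Col19a1 (chromosome 1, 24264522 to 24594276), a FACIT chain, had a different order of libraries, and is singled out after its values were seen. It was at 0.297, 0.115 and 0.0936 FPKM in the wild types, 0.647, 0.302 and 0.195 in the heterozygotes and 0.0714, 0.804 and 0.693 in the knockouts. These rest on 75, 26 and 23, on 138, 77 and 43, and on 19, 216 and 148 implied fragments. The 3 highest libraries were knockout replicates 2 and 3 and the one labelled heterozygote replicate 1, which are the 3 with Nkx2-2 at 6.37 FPKM or less, and the library labelled knockout replicate 1 was the lowest of all. The share of all genes that are highest in these 3 libraries was not counted, and a link to Nkx2-2 was not tested. In a fit without the filter on low values, limma gave a knockout minus wild-type difference of 0.35 on the log2(FPKM + 1) scale (SE 0.20, adjusted p = 0.674), and 0.23 for heterozygotes. Of the 12 chains that only this fit covers, Col25a1 had the smallest unadjusted p in knockouts (0.0215, limma adjusted p = 0.6575), with a difference of -0.35 (SE 0.12). Col25a1 was at 0.777, 1.06 and 0.719 FPKM in the wild types, 0.628, 0.513 and 0.878 in the heterozygotes and 0.679, 0.293 and 0.412 in the knockouts. Its knockouts all lay below its wild types, with knockout replicates 2 and 3 lowest, but the gap was small (0.679 against 0.719 FPKM). Among genes that passed the filter, which Col25a1 did not, 6.64% had knockouts all below wild types. The gene next to Col19a1, Col9a1, 4.94 kb away, did not share the order of Col19a1.

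Library by library, most tested chains had a similar order. Of the 31 tested collagens, 25 were lowest in knockout replicate 2 and 21 were highest in wild-type replicate 2. Over all 13306 tested genes, knockout replicate 2 was lowest for 29.8% and wild-type replicate 2 highest for 14.6%. Relative to the wild-type mean on the log2(FPKM + 1) scale, the median collagen lay at 0.01, 0.18 and -0.20 in the wild types, -0.19, -0.28 and -0.13 in the heterozygotes, and -0.03, -0.54 and -0.36 in the knockouts. The library labelled knockout replicate 1 sat with the wild types, the heterozygotes sat near the lowest wild type, and knockout replicates 2 and 3 were lowest. Below the lowest wild type lay 29 and 26 of the 31 chains in knockout replicates 2 and 3, but 2 in the library labelled knockout replicate 1, and 14, 21 and 11 in the heterozygotes. Of all tested genes, 46.5% and 34.6% lay below the lowest wild type in knockout replicates 2 and 3, 16.5% in the one labelled knockout replicate 1, and 24.6%, 34.4% and 30.4% in the heterozygotes. The median coefficient of variation over the 9 libraries was 18.5% for tested collagens and 8.80% for all tested genes.

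**Figure D2:**
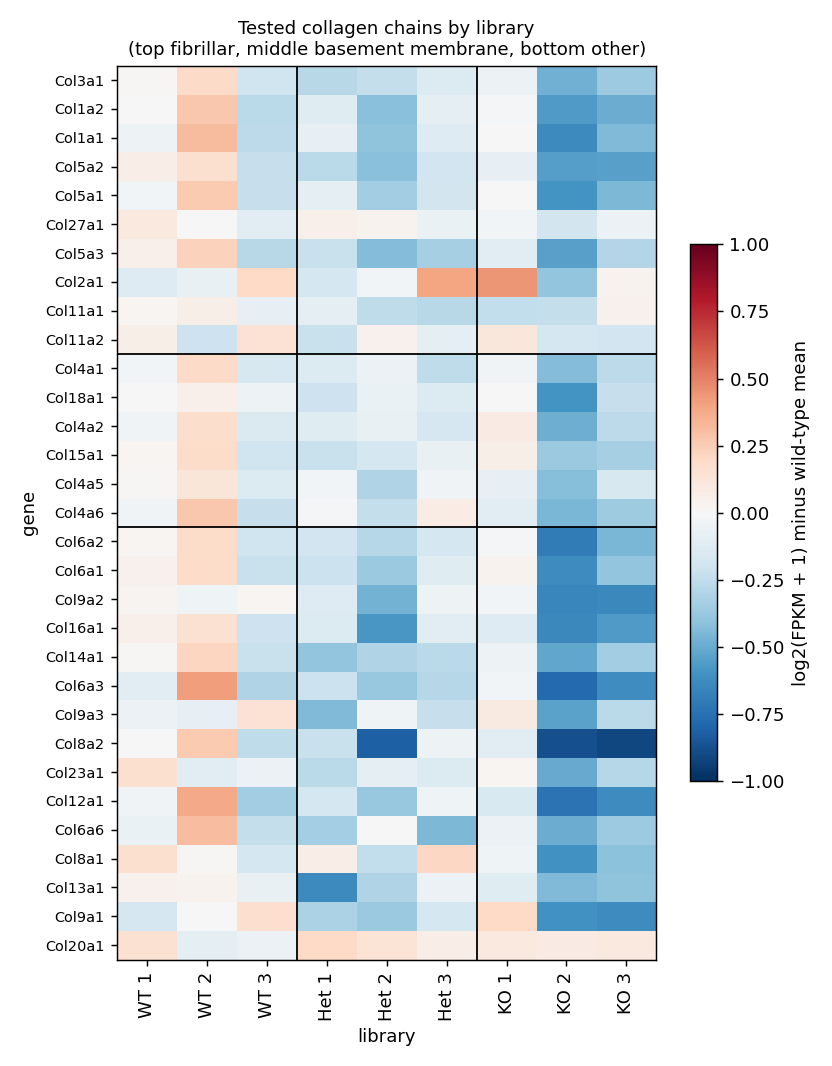
Difference of each tested collagen chain from its wild-type mean in each library, on the log2(FPKM + 1) scale, as a colour from blue (lower) to red (higher). Rows are 31 chains in 3 blocks (fibrillar, basement membrane, other) and columns are the 9 libraries. The columns of knockout replicates 2 and 3 are blue in most rows, with medians of -0.54 and -0.36, and that of knockout replicate 1 is near white, with a median of -0.03.

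Summed over all 43 chains, the level was 1973 ± 293 FPKM in wild types, 1695 ± 98.4 in heterozygotes and 1573 ± 318 in knockouts (SD, n = 3). The knockout mean differed from the wild-type mean by -20.3% (exact two-sided permutation p = 0.2) and the heterozygote mean by -14.1% (p = 0.3, the same exact test), within the spread of the libraries. With 1 library left out the knockout difference ran from -29.3% (without the library labelled knockout replicate 1) to -13.7% (without wild-type replicate 2), and the heterozygote difference from -19.9% (without wild-type replicate 3) to -7.01% (without wild-type replicate 2). With 3 libraries in each group, 0.1 is the smallest p this test allows. The fibrillar sum was 1284 ± 213, 1098 ± 81.0 and 1021 ± 198 FPKM in the same order, the basement membrane sum 249 ± 25.1, 225 ± 7.23 and 211 ± 36.6, and the sum of the other chains 439.8 ± 55.8, 371 ± 24.8 and 341 ± 84.0. Knockout and wild-type libraries overlapped in every class. In whole tissue, fewer cells of a type and less RNA per cell cannot be told apart.

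The summed level of mesenchyme markers differed between libraries in a similar way. It was 671, 719.9 and 583 FPKM in the wild types, 628, 525 and 605 in the heterozygotes and 673, 453 and 546 in the knockouts. Vim, at 442 FPKM on average, made up most of this sum, with Acta2 next at 84 FPKM. Single markers could differ from it, as Pdgfrb was highest in the library labelled heterozygote replicate 1, at 26.5 FPKM. The collagen sum per unit of this marker sum was 2.92, 3.16 and 2.90 in the wild types, 2.74, 3.02 and 2.94 in the heterozygotes and 2.87, 2.91 and 2.69 in the knockouts, a narrower range than either sum. Of 10 mesenchyme markers, 9 had a knockout mean below the wild-type mean, with a median difference of -0.25 over the 10, as had all 7 of endothelium (-0.20, summed level 171 to 201 FPKM in wild types and 140.0 to 178 in knockouts). The 5 acinar and 5 epithelial markers had higher knockout means (medians 0.23 and 0.11). The remaining mesenchyme marker, Pdgfrb, a receptor of mesenchyme and pericytes, was at 23.1 FPKM on average in both groups. The 4 endocrine markers had lower knockout means too, with a median of -0.44, farther from 0 than that of mesenchyme, and a summed level of 2993 to 4146 FPKM in wild types and 1999 to 3601 in knockouts. So had the 4 leukocyte markers (-0.29, summed level 169 to 189.7 FPKM in wild types and 150.4 to 167 in knockouts). Of 5 markers of glia and neurons 3 were lower (median -0.10), and of 3 blood markers 1 was (0.05). Among the former, Tubb3 was uneven, with 88.7 FPKM for heterozygote replicate 1 and 68.9 for knockout replicate 1, against 14.2 to 34.5 elsewhere. Liver and gut markers had lower knockout means for 2 of 3 tested genes (median -0.15). Alb stood apart in wild-type replicate 2 (36.45 FPKM, against 1.68 to 5.04 elsewhere), where Afp was also highest (40.6). Tff2 was instead highest in heterozygote replicate 2 (48.1). The part of these cell types in the collagen differences was not tested.

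**Figure D3:**
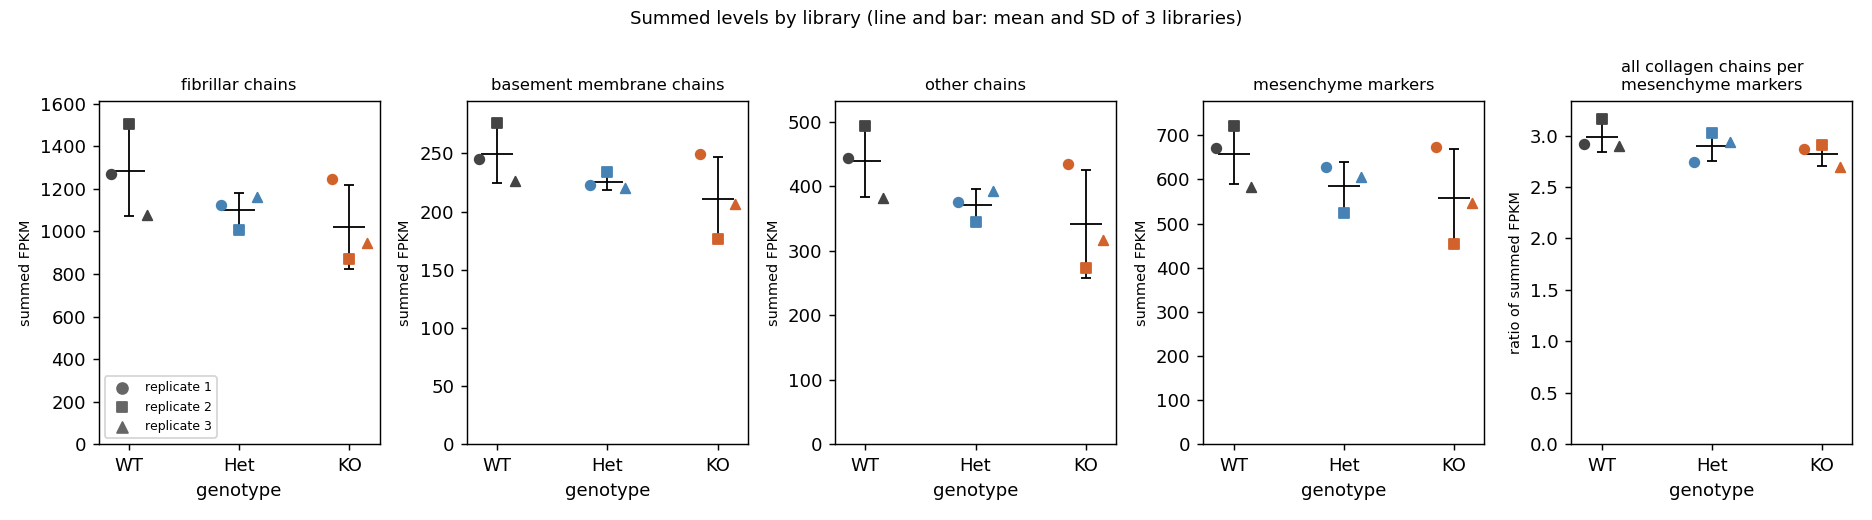
Summed FPKM of the fibrillar, basement membrane and other collagen chains and of 10 mesenchyme markers, and the ratio of the collagen sum to the mesenchyme sum, in each library. Symbols give the replicate number, lines and bars the mean and SD of 3 libraries, and every axis starts at 0. The collagen sums of knockout replicates 2 and 3 lie below every wild type, that of knockout replicate 1 does not, and the ratio lies between 2.69 and 3.16 in all 9 libraries.

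The test of knockouts against wild types called no collagen. By limma over 13306 genes, 0 of 31 tested chains had an adjusted p under 0.05, as had 0.000% of all genes (0 by count, with 1117, or 8.39%, at an unadjusted p under 0.05). The smallest adjusted p of a collagen was 0.576. The mean of log2(FPKM + 1), on which such counts rest here and below, was lower in knockouts for 29 of 31 chains, against 58.5% of all tested genes. The exceptions were Col2a1 (0.03) and Col20a1 (0.09). The median difference of the 31 chains was -0.31 on the log2(FPKM + 1) scale, against -0.03 for all tested genes. It was -0.31 for the 10 fibrillar chains (9 lower), -0.23 for the 6 of basement membranes (6 lower) and -0.34 for the 15 others (14 lower).

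An unadjusted p under 0.05 with a lower knockout mean was reached by 8 of 31 chains, against 5.79% of all tested genes, and with a higher mean by none (2.60%). They were Col3a1 and Col5a2 among fibrillar chains, and Col6a2, Col8a2, Col9a2, Col12a1, Col14a1 and Col16a1 among the others. The smallest p belonged to Col5a2, at 55.2 ± 7.72 FPKM in wild types and 42.0 ± 8.30 in knockouts (SD, n = 3), a difference of -0.39 (SE 0.14, limma adjusted p = 0.576). Col16a1 was at 20.8 ± 2.75 and 15.1 ± 3.24 FPKM, a difference of -0.44 (SE 0.17). Col9a2 was at 20.7 ± 0.579 and 15.3 ± 4.29 FPKM, a difference of -0.44 (SE 0.17). The difference farthest from 0 was that of Col8a2, -0.64 (SE 0.25), followed by Col12a1 at -0.51 (SE 0.20). Groups that did not overlap, knockouts lower, were seen for 1 of 31 chains (Col13a1), against 6.64% of all tested genes, and with knockouts higher for 0 (4.55%).

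The size of these differences depended on single libraries. Without the library labelled knockout replicate 1, 30 of 31 chains had the lower mean in knockouts, the median difference was -0.42, and 26 chains had an unadjusted p under 0.05 and a lower knockout mean, where 14.8% of all tested genes did. Without both that library and the one labelled heterozygote replicate 1, it was 25 chains (14.9% of all tested genes), at the same median. Without wild-type replicate 3 the count was 16 (7.09%). It was 1 when wild-type replicate 2 (2.13%) or knockout replicate 3 (3.03%) was left out, and 0 when wild-type replicate 1 (3.06%) or knockout replicate 2 (1.65%) was. With sex, read from Xist, as a second term, the median was -0.25, with 30 of 31 lower and 1 chain at an unadjusted p under 0.05 and a lower mean (2.52% of all tested genes). No collagen had an adjusted p under 0.05 in any of these fits.

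**Figure D4:**
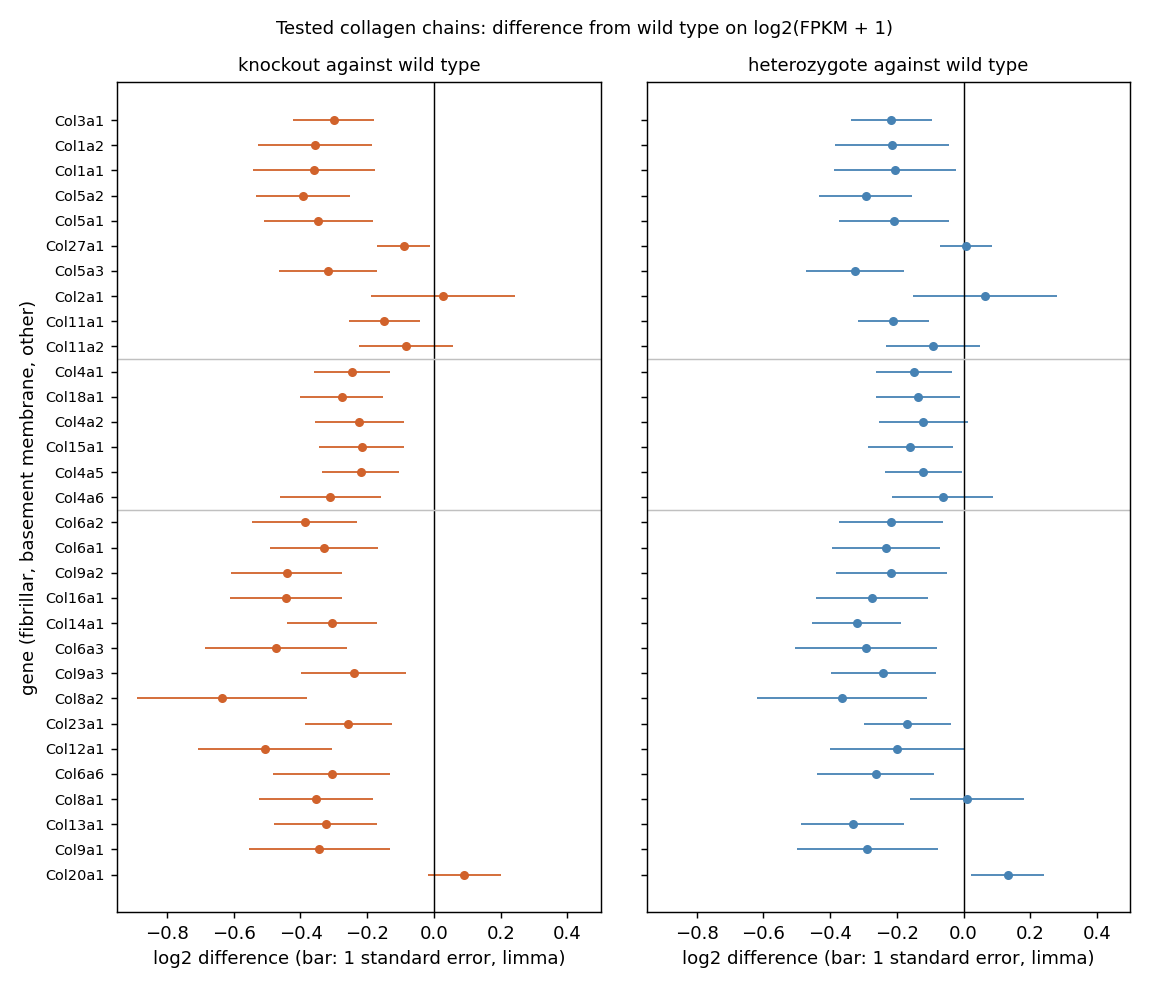
Difference of knockout (left) and heterozygote (right) from wild type for each of the 31 tested chains on the log2(FPKM + 1) scale. Points are limma estimates and bars are 1 standard error on each side. Both panels use the same 3 wild-type libraries. In the left panel 29 points and in the right panel 27 points lie below 0.

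Heterozygotes had lower means than wild types for 27 of 31 chains, against 57.1% of all tested genes, and limma again called 0 chains (0.000% of all genes, with 522 genes, or 3.92%, at an unadjusted p under 0.05). The median difference was -0.21, against -0.02 for all tested genes, and by class it was -0.21 for fibrillar, -0.13 for basement membrane and -0.24 for other chains. It ran from -0.26 without wild-type replicate 3 to -0.11 without wild-type replicate 2, where the fibrillar median was -0.32 and -0.10 and the basement membrane median -0.19 and -0.057. The comparison shares its wild-type libraries with the one above, and the values stand side by side. Of the 31 chains, 1 had an unadjusted p under 0.05, with a lower heterozygote mean, against 2.58% of all tested genes. None had one with a higher mean (1.35% of all tested genes). With 1 library left out this count was 0 to 4, being 4 without wild-type replicate 3 (3.86% of all tested genes) or the library labelled knockout replicate 1 (3.93%), 2 without knockout replicate 2 (3.19%), 1 without heterozygote replicate 3 (2.58%), and 0 without each of the others. The 1 chain was Col14a1, at 17.4 ± 2.76 FPKM in wild types and 13.6 ± 0.651 in heterozygotes, a difference of -0.32 (SE 0.13, limma adjusted p = 0.945). Col5a3 (-0.33, SE 0.15) and Col13a1 (-0.33, SE 0.15) had the next smallest p. In 5 chains (Col9a1, Col9a2, Col11a1, Col14a1 and Col18a1) every heterozygote lay below every wild type, against 7.05% of all tested genes, and in none above (3.54%). The means of Col2a1, Col8a1, Col20a1 and Col27a1 were not lower in heterozygotes.

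Between knockouts and heterozygotes the differences were smaller. By limma 0 of 31 chains were called (0.000% of all genes, with 296 genes at an unadjusted p under 0.05), 25 had the lower mean in knockouts (55.3% of all tested genes did), and the median was -0.10. No chain reached an unadjusted p under 0.05 (2.22% of all tested genes did, 0.969% with knockouts lower and 1.26% with knockouts higher) and none had groups that did not overlap, against 2.43% with knockouts lower and 3.48% with knockouts higher. The smallest p belonged to Col8a1, at 2.80 ± 0.597 FPKM in heterozygotes and 1.97 ± 0.603 in knockouts (-0.36, SE 0.17, limma adjusted p = 0.9998). Col4a6 (-0.25, SE 0.15) and Col12a1 (-0.31, SE 0.20) came next. Without knockout replicate 2 only 15 of 31 chains were lower and the median was 0.001, and without the library labelled knockout replicate 1 it was -0.25 with 30 lower. The latter fit gave 9 chains an unadjusted p under 0.05 and a lower knockout mean, as it did 6.58% of all tested genes, and leaving out the library labelled heterozygote replicate 1 as well gave 5 (4.21%).

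Pairs of chains that assemble into 1 protein varied less in ratio than in level, and so did a pair that does not, Col3a1 and Col1a1. Col1a1 per Col1a2, the chains of type I collagen, was 0.928 to 1.01 over the 9 libraries, with a mean of 0.980 and a coefficient of variation of 3.10%, while each chain alone varied by 20.0% and 18.9%. Col4a1 per Col4a2 was 1.804 to 2.05, with a mean of 1.94. Col5a1 per Col5a2 was 0.831 to 1.001. Col3a1 per Col1a1, chains of different collagen types, had a coefficient of variation of 8.49%, against 14.3% for Col3a1 and 20.0% for Col1a1 alone. It was thus below the 10.2% of Col6a1 per Col6a3 and the 10.8% of Col4a5 per Col4a6, which are partners. These are ratios of transcript levels per length and not of protein.

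In type VI collagen, Col6a1 per Col6a2 was 0.812, 0.798 and 0.783 in the wild types, 0.786, 0.750 and 0.832 in the heterozygotes and 0.825, 0.834 and 0.831 in the knockouts. The knockouts lay above all wild types, by a mean of 0.830 ± 0.00504 against 0.797 ± 0.0147 (SD, n = 3), with an exact two-sided permutation p of 0.1, the smallest that 3 against 3 can give. Of 5 ratios compared between these 2 groups it was the only one to reach that p (the others were 0.3 to 1.0), and adjusted over the 5 it does not pass 0.05. Col6a1 per Col6a3 ranged more widely, from 7.95 to 11.5, with wild-type replicate 2 lowest. For heterozygotes against wild types the exact p of the 5 ratios was 0.4 to 0.9.

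**Figure D5:**
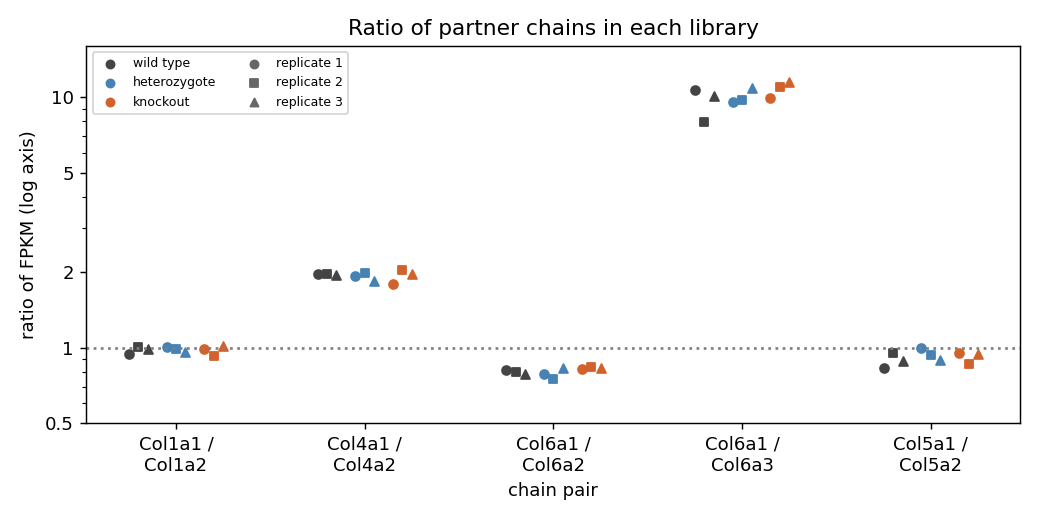
Ratio of FPKM of 5 pairs of partner chains in each library, on a log axis. Colours give the genotype, symbols the replicate number, and the dotted line marks equal levels. Col1a1 per Col1a2 lies between 0.928 and 1.01 and Col4a1 per Col4a2 between 1.804 and 2.05 in all 9 libraries.

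Several partner chains are also neighbours in the genome. Distances here are in the authors' coordinates, and strands are those of the GENCODE annotation of mm9. Col4a1 and Col4a2 lie head to head on chromosome 8 with 2 bases between their starts. In GENCODE they overlap, since Col4a2 begins at 11312805 and Col4a1 extends to 11312826. Col4a3 and Col4a4 lie head to head on chromosome 1 with 71 bases between them, and Col4a5 and Col4a6 on the X chromosome with 1.34 kb. The level of Col4a5 was 2.44 to 3.49 times that of Col4a6. Col3a1 and Col5a2 lie tail to tail on chromosome 1 with 24.6 kb between them, Col6a2 and Col6a1 on the same strand of chromosome 10 with 85.4 kb, and Col6a4, Col6a5 and Col6a6 in a row on chromosome 9. Within these neighbourhoods levels per length differed widely, from 0.109 FPKM on average for Col6a4 to 3.62 for Col6a6, and from 47.3 for Col5a2 to 450.0 for Col3a1. All 43 chains overlap a protein-coding gene of the same name in the GENCODE annotation of mm9.

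Genes that make, export and fold collagen chains did not pass the test either. Of 22 listed, 20 were tested, limma called 0, and 16 had a lower and 4 a higher knockout mean, with a median of -0.18 against wild type. Of all tested genes, 58.5% had a lower mean in knockouts and 57.1% in heterozygotes than in wild types. The counts of this list and of those below stand beside these shares. P4ha3, a prolyl hydroxylase subunit, was at 15.4, 17.2 and 12.8 FPKM in the wild types, 12.7, 9.95 and 14.0 in the heterozygotes and 14.1, 9.35 and 9.39 in the knockouts (-0.45, SE 0.17). Plod1, a lysyl hydroxylase, was at 25.1, 28.2 and 21.6 FPKM in the wild types, 21.8, 19.0 and 23.4 in the heterozygotes and 23.6, 16.9 and 19.3 in the knockouts (-0.32, SE 0.13). Both had the order of the fibrillar chains, with knockout replicate 2 lowest and wild-type replicate 2 highest. Ctage5, which helps load large cargo such as collagen at the endoplasmic reticulum, went the other way, at 74.3, 68.8 and 71.6 FPKM in the wild types, 74.9, 83.5 and 76.5 in the heterozygotes and 75.8, 87.4 and 82.3 in the knockouts (0.19, SE 0.07, limma adjusted p = 0.576).

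Every knockout of Ctage5 lay above every wild type, as for 4.55% of all tested genes. Ppib, a prolyl isomerase and the highest gene of the list, was at 1668, 1738 and 1836 FPKM in the wild types, 1783, 1938 and 1808 in the heterozygotes and 1739, 2034 and 1899 in the knockouts. Among heterozygotes, 16 of the 20 genes had a lower mean than in wild types. Leprel1, a prolyl hydroxylase of another class, had all heterozygotes below all wild types, at 2.72, 1.87 and 1.98 FPKM in the wild types, 1.30, 1.42 and 1.47 in the heterozygotes and 2.12, 2.07 and 1.53 in the knockouts (-0.41, SE 0.13, limma adjusted p = 0.945). P4ha2, another prolyl hydroxylase subunit, differed by -0.32 (SE 0.15) between these groups. Leprel2, a relative of Leprel1, differed by -0.28 (SE 0.19) between knockouts and heterozygotes.

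Outside the cell, procollagen is trimmed and cross-linked. Of 13 genes of these steps 8 were tested, 0 were called by limma, and all 8 had a lower mean in knockouts (median -0.26) and in heterozygotes (-0.21) than in wild types. Pcolce, the enhancer of the propeptide protease Bmp1, was at 63.1, 64.4 and 53.7 FPKM in the wild types, 54.4, 47.5 and 55.4 in the heterozygotes and 55.3, 47.4 and 53.8 in the knockouts (-0.21, SE 0.09). Bmp1 was at 39.4, 42.3 and 36.9 FPKM in the wild types, 38.3, 32.3 and 38.5 in the heterozygotes and 40.8, 25.3 and 31.1 in the knockouts (-0.30, SE 0.15). Lox, the lysyl oxidase that starts cross-links, was at 44.4, 54.8 and 36.4 FPKM in the wild types, 42.7, 31.4 and 35.5 in the heterozygotes and 47.5, 30.4 and 30.7 in the knockouts (-0.33, SE 0.20). The knockouts of each overlapped the wild types, and the library labelled knockout replicate 1 was the highest knockout. Loxl2, a related oxidase, differed by -0.30 (SE 0.16) between heterozygotes and wild types and by 0.13 (SE 0.16) between knockouts and heterozygotes, but by -0.02 in the latter without the library labelled knockout replicate 1.

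Receptors of collagen had the median nearest 0 of these lists. All 7 tested of 10 had a lower mean in knockouts, with a median of -0.13, and 0 were called by limma. Ddr2, a receptor tyrosine kinase of mesenchymal cells that binds fibrillar collagen, was at 6.92, 7.16 and 6.31 FPKM in the wild types, 6.11, 6.00 and 6.07 in the heterozygotes and 6.50, 5.34 and 5.20 in the knockouts (-0.23, SE 0.09). Mrc2, which takes up collagen for breakdown, was at 10.9, 12.5 and 9.16 FPKM in the wild types, 10.2, 8.27 and 10.9 in the heterozygotes and 11.1, 7.43 and 7.68 in the knockouts (-0.30, SE 0.16). Itga11, a collagen-binding integrin subunit of fibroblasts, was at 1.52, 1.70 and 1.36 FPKM in the wild types, 1.37, 1.41 and 2.20 in the heterozygotes and 1.56, 1.01 and 1.07 in the knockouts. The heterozygotes of Ddr2 all lay below the wild types and the highest Itga11 library was heterozygote replicate 3. Itgb1, the shared beta subunit, was even, at 149, 159.5 and 152 FPKM in the wild types, 158, 146 and 140.2 in the heterozygotes and 151, 149.8 and 142 in the knockouts. Itga2 was near 1 FPKM, with a heterozygote difference of -0.17 (SE 0.15).

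Genes of collagen breakdown and its inhibitors were 9, of which 7 were tested, 0 called by limma and 7 lower in mean in knockouts (median -0.37). Mmp14, a membrane-bound collagenase, was at 74.3, 75.1 and 56.9 FPKM in the wild types, 62.9, 48.2 and 64.8 in the heterozygotes and 61.8, 41.1 and 51.8 in the knockouts (-0.42, SE 0.17). Timp2, an inhibitor that also helps Mmp14 to activate Mmp2, was at 58.2, 64.1 and 49.1 FPKM in the wild types, 48.9, 40.8 and 52.2 in the heterozygotes and 54.6, 35.5 and 42.9 in the knockouts (-0.37, SE 0.16). Mmp9, a gelatinase largely of leukocytes and osteoclasts, was at 2.67, 3.86 and 2.10 FPKM in the wild types, 3.16, 0.468 and 2.05 in the heterozygotes and 2.24, 0.535 and 1.13 in the knockouts (-0.79, SE 0.39). Mmp9 varied widely within groups, with its low values in heterozygote replicate 2 and knockout replicate 2. Timp3 and Ctsk, a matrix-bound inhibitor and a collagen-cutting cathepsin, differed between heterozygotes and wild types by -0.22 (SE 0.12) and -0.17 (SE 0.09).

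Proteins that sit on or beside fibrils had the lowest median of the lists, -0.40 in knockouts, with 11 of 11 tested genes lower in mean and 0 called by limma. Fmod, fibromodulin, was at 12.8, 14.2 and 11.6 FPKM in the wild types, 10.9, 8.29 and 10.8 in the heterozygotes and 12.2, 6.91 and 8.35 in the knockouts (-0.48, SE 0.18, limma adjusted p = 0.576). Fbn2, a microfibril protein of the embryo, was at 8.21, 12.1 and 6.98 FPKM in the wild types, 8.58, 6.82 and 7.43 in the heterozygotes and 7.92, 5.37 and 5.46 in the knockouts (-0.46, SE 0.19). Thbs2, a matrix protein that affects fibril form, was at 14.8, 17.7 and 12.4 FPKM in the wild types, 13.6, 10.3 and 13.1 in the heterozygotes and 14.1, 9.32 and 10.2 in the knockouts (-0.39, SE 0.17). In all 3, the lowest library was knockout replicate 2 and the library labelled knockout replicate 1 lay inside the wild-type range. Lum, the fibril-binding lumican, differed by -0.36 (SE 0.18) in heterozygotes, and Fbn1 by -0.24 (SE 0.19) between knockouts and heterozygotes. Sparc, a collagen-binding protein and the highest gene of the list, was at 785, 878 and 690.4 FPKM in the wild types, 702, 582 and 738 in the heterozygotes and 753, 517 and 640.4 in the knockouts.

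Partners in the basement membrane had the same median as its collagens, -0.23, with 10 of 10 tested genes lower in mean in knockouts and 0 called by limma. Pxdn, the peroxidase that cross-links type IV collagen, was at 29.8, 32.5 and 26.8 FPKM in the wild types, 26.2, 26.7 and 24.3 in the heterozygotes and 28.4, 19.6 and 22.0 in the knockouts (-0.35, SE 0.12, limma adjusted p = 0.576). Hspg2, perlecan, was at 8.38, 11.7 and 8.29 FPKM in the wild types, 9.32, 9.36 and 7.99 in the heterozygotes and 8.47, 6.29 and 6.72 in the knockouts (-0.35, SE 0.14). Nid1, which ties laminin to type IV collagen, was at 47.6, 58.6 and 39.5 FPKM in the wild types, 42.9, 39.5 and 40.7 in the heterozygotes and 46.4, 32.5 and 33.9 in the knockouts (-0.36, SE 0.15). The knockouts of each overlapped the wild types through the library labelled knockout replicate 1. Lama4, a laminin chain of vessels, differed by -0.18 (SE 0.10) in heterozygotes, and Agrn, agrin, by -0.19 (SE 0.11) between knockouts and heterozygotes.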

How the data were processed

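Total RNA of whole pancreas from 9 samples at e15.5 was sequenced with a TruSeq kit, per the labels. Per the labels, TopHat 2.0.4 placed the reads on mm9 with up to 4 mismatches and 10 hits each. The submitters' processing notes also list CASAVA 1.8.2, Cufflinks and DESeq, whose role and order are not stated, and the gene annotation and any use of strand are not given in these sources. The deposited values are FPKM with confidence bounds and a status word per locus, per the file headers. Estimates that failed for excess data were treated as missing, which removed 4 symbols (Amy2a2, Amy2a5, Ctrb1 and Pnliprp1), and the FPKM of 248 symbols with several loci were summed. None of these are collagens, and all 43 collagens had status OK and 1 locus. The upper bound was read as 2 standard errors above the FPKM, which gives the implied number of fragments.

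Groups and replicate numbers came from the sample titles. log2(FPKM + 1) was fitted in limma 3.58.1 (R 4.3.3) with an intensity trend and a term for genotype alone, over all 9 libraries at once. Genes at 1 FPKM or more in at least 3 libraries were tested. The two-sided p-values were adjusted over all 13306 genes (Benjamini-Hochberg), and 0.05 was the threshold. A difference on this scale understates that of low genes. The fit was tested on simulated data with changes larger than any collagen difference given here. That test cannot tell how often differences of the size seen here would be called. Sums and ratios were compared by exact permutation over libraries.

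The collagens, the lists and the alternatives were chosen with earlier results of these data known, and no list was given a p of its own. Values in every library are given for the 5 fibrillar, 5 basement membrane and 8 other chains of highest mean, the 3 of smallest p in each comparison and the partner chains. Of each further list, the gene of highest level and those of smallest p are named (up to 3 for knockout against wild type, 2 for each other comparison). Any further name was picked with its values in view. Alternatives changed the pseudocount (0.1), the filter, the scaling, the model, the terms and the libraries.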

Additional observations from a re-analysis of the deposited data

How the results depend on the processing

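No collagen chain had an adjusted p under 0.05 in any comparison under any alternative run (pseudocount 0.1, no filter, median-of-ratios or upper-quartile scaling, voom on implied fragments, array weights, sex as a term, only the 6 libraries compared, the replicate block, and each library left out). Over all genes, limma called 5 for knockout against wild type with array weights, 1 with only the 6 libraries compared, 0 to 1 with 1 library left out, and 4 without 2 libraries, those labelled knockout replicate 1 and heterozygote replicate 1. For heterozygote against wild type it called 6 with only the 6 libraries compared, 0 to 7 with 1 library left out and 5 without those 2 libraries. For knockout against heterozygote it called 0 to 4 with 1 library left out and 5 without those 2.

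With the replicate block, the number of genes called was 1 for heterozygote against wild type and 0 for the other comparisons. The numbers were not taken to pair the libraries. The correlation of same-numbered deviations had both signs for knockout against wild type (-0.121, -0.123 and 0.114) and for heterozygote against wild type (0.0866, -0.189 and 0.182). For knockout against heterozygote it was 0.29, 0.275 and 0.0468, where libraries of different number gave -0.344 to 0.148. These values cannot settle whether the numbers pair libraries in that comparison, because each group has only 3 libraries.

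With 1 library left out, the median of all tested collagens ranged from -0.42 to -0.21 for knockout against wild type. The median of the other chains for knockout against heterozygote was -0.33 to -0.014. In the same comparison, the difference of the summed FPKM was -17.7% to 0.302% for all chains, -15.1% to 1.10% for basement membrane chains and -20.6% to 1.24% for the other chains, above 0 only without knockout replicate 2. Of 66 differences of named genes, 2 changed sign, both for knockout against heterozygote: Loxl2 ranged from -0.017 (knockout replicate 1 left out) to 0.25 and was at -0.048 with both libraries left out, and Mmp9 ranged from -0.70 to 0.055 (heterozygote replicate 1 left out). The cause was not tested. Array weights gave an unadjusted p under 0.05 and a lower knockout mean to 25 collagens and 18.1% of all tested genes for knockout against wild type, against 8 and 5.79% with equal weights, and to 8 collagens and 7.37% for knockout against heterozygote. They put a weight of 5.73 on knockout replicate 3 and 0.446 on the library labelled knockout replicate 1. Depth limits chains under 1 FPKM, which rest on 216 implied fragments or fewer per library for Col19a1 and 3 or fewer for Col10a1.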
